A study of Rattus norvegicus with 6 samples.

Results

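Desmosome genes were compared between cell fractions of the rat epididymis, the coiled duct in which sperm mature. The members were chosen by name as 10 structural genes of the desmosome: Dsg2, Dsg3, Dsc2, Dsc3, Pkp1, Pkp2, Pkp3, Jup, Dsp and Perp. Of these, 9 had a probe set with exactly 1 gene symbol among the 18166 genes that could be named, and the expression of Dsp, which encodes desmoplakin, is not analysed here. Magnetic separation gave a basal cell fraction (3 arrays) and a non-basal cell fraction (3 arrays) from epididymides of Sprague-Dawley rats that were 48 days old. Total RNA, biotin-labelled, was read on Affymetrix RaGene 2.0 ST arrays, whose values are log2 expression after robust multi-array averaging (RMA). The series is described as 3 rats in triplicate, with no array tied to an animal, so p-values measure the spread between these arrays, which may be technical. They do not name the surface molecule used in the separation either.

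Desmosomes are spot-like junctions that rivet neighbouring epithelial cells together and anchor their keratin filaments. The adhesive part is made of desmosomal cadherins, the desmogleins and desmocollins, whose tails bind the armadillo proteins plakoglobin and plakophilins, which in turn hold desmoplakin and the keratins. Basal cells are small epithelial cells at the base of the duct wall, underlying the taller principal cells, and the cadherin and plakophilin genes used in a tissue are known to differ between simple and stratified epithelia.

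The arrays had closely matched distributions, with medians of 6.63 to 6.70 (log2), and their number limits the precision. All 8 measured basal epithelial markers, among them the transcription factor gene Tp63, were higher in the basal fraction, whereas all 6 fibroblast, 4 smooth muscle and 4 endothelial markers were lower, as were 3 of 6 leukocyte markers. Of all genes, 7.71% were higher and 7.14% were lower by limma at an adjusted p under 0.05. None of the 8 principal cell markers or the 6 narrow and clear cell markers passed in limma. Crisp1 and Clu, and no other of them, lay at an unadjusted limma p under 0.05 (0.0147 and 0.0083), both lower in the basal fraction. Log2 differences, basal minus non-basal, ran from -0.79 to -0.17 for the principal cell markers (median -0.35). For the narrow and clear cell markers they ran from -0.78 to 0.18 (median -0.40). Basal replicate 3 stood apart from the other basal arrays, with a mean deviation of the fibroblast markers of -0.82 against -3.08 and -2.38. Among non-basal arrays replicate 1 stood apart, its basal markers deviating by -2.13 on average, against -1.09 in each of the others. In such bulk fractions, fewer cells of a type and less RNA per cell cannot be told apart.

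Transcripts of 8 of the 9 measured desmosome genes were higher in the basal fraction, by 1.73-fold to 7.23-fold, and none was lower. The plakophilin gene Pkp1 had the largest difference, followed by the desmoglein gene Dsg3. The exception was the plakophilin gene Pkp2, which did not pass the test. By limma with Benjamini-Hochberg adjustment, the basal fraction was higher for 7.71% of all genes and lower for 7.14% at an adjusted p under 0.05. At least 2-fold higher values among the called genes were found for 7 of the 9 members and for 2.28% of all genes. The 9 members had a median log2 difference of 1.43, basal minus non-basal, beside a median of 0.00343 over all genes. In 8 members the 3 basal values all lay above the 3 non-basal values, a separation seen in 17.6% of all genes. The plot of the 9 genes by array shows this separation and its exception.

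**Figure D1:**
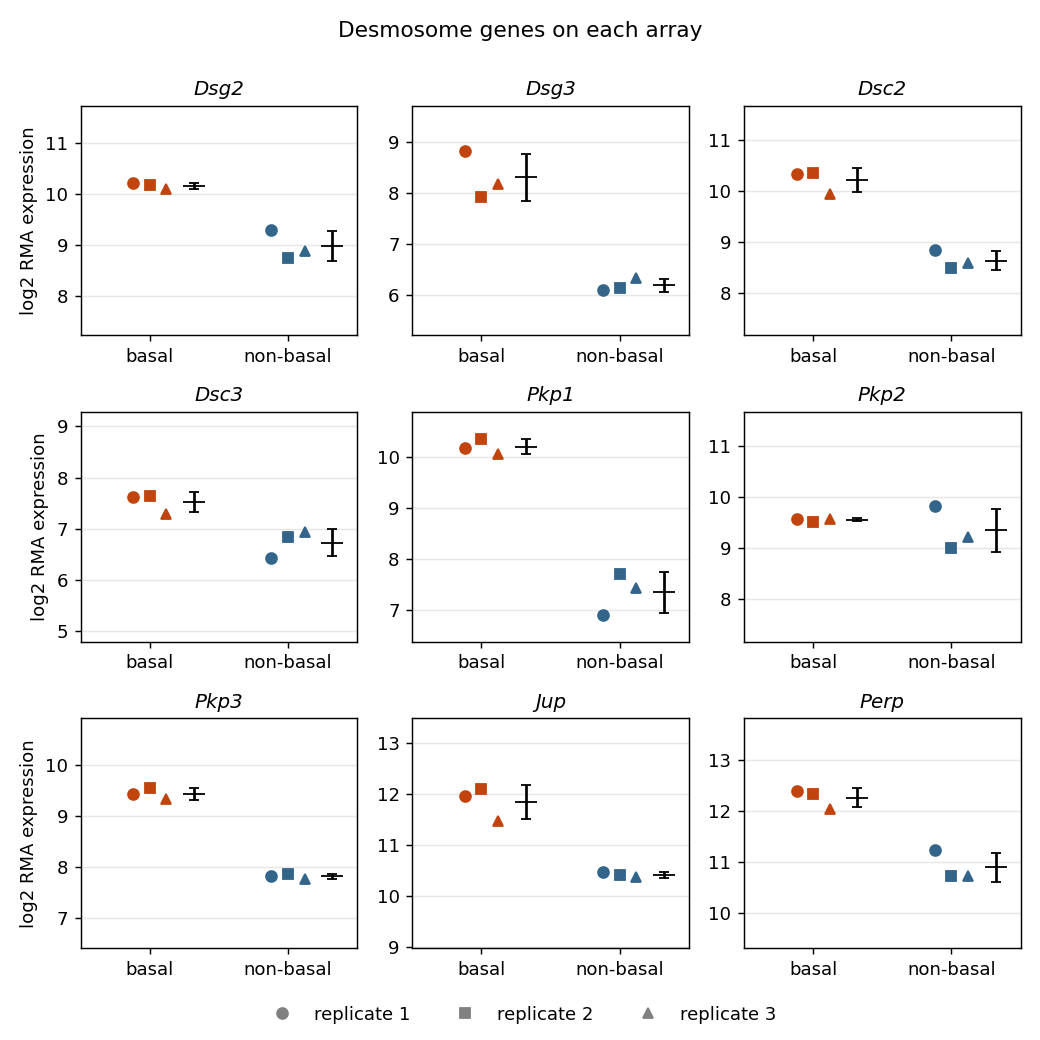
Log2 RMA expression (vertical axis, every panel spanning the same number of log2 units) of the 9 measured desmosome genes on the 3 basal and 3 non-basal arrays. Points are arrays, with shapes for replicate numbers, and the bar beside them is the mean ± SD. The basal points lie above the non-basal points in every panel except that of Pkp2, where non-basal replicate 1 has the highest value.

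The desmogleins are the desmosomal cadherins that bind desmocollins across the gap between cells. Dsg3, the desmoglein of the lower layers of stratified epithelia and an autoantigen in the blistering disease pemphigus vulgaris, had log2 expression of 8.81, 7.92 and 8.18 on the basal arrays and 6.10, 6.13 and 6.32 on the non-basal arrays. Every basal value exceeded every non-basal value, and the basal arrays were spread more widely. The log2 difference was 2.12 ± 0.23 (SE), or 4.35-fold (limma adjusted p = 0.00385). Dsg2, the desmoglein that simple epithelia and heart muscle also use, had values of 10.21, 10.18 and 10.09 in the basal fraction and 9.30, 8.75 and 8.88 in the non-basal fraction. The groups again did not overlap, and the difference was 1.18 ± 0.149 (SE; limma adjusted p = 0.00564).

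The desmocollins pair with the desmogleins in the junction. Dsc2, the most widely expressed desmocollin, had log2 expression of 10.34, 10.36 and 9.94 on the basal arrays and 8.84, 8.48 and 8.59 on the non-basal arrays. The difference was 1.58 ± 0.15 (SE), or 2.99-fold (limma adjusted p = 0.00295), with basal replicate 3 lowest among the basal arrays. Dsc3, the desmocollin of basal layers in stratified epithelia, had values of 7.61, 7.64 and 7.29 in the basal fraction and 6.42, 6.83 and 6.92 in the non-basal fraction. Its difference of 0.79 ± 0.165 (SE; limma adjusted p = 0.0275) was the smallest among the called members. The call of Dsc3 was lost when basal replicate 1 or 2 or non-basal replicate 2 or 3 was left out, with an adjusted p of up to 0.116, while its difference stayed between 0.64 and 0.91.

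The desmosomal cadherin genes lie side by side on rat chromosome 18, in the order Dsc3, Dsc2, Dsc1, Dsg1, Dsg4, Dsg3 and Dsg2 as RefSeq lists them for GRCr8. The inner neighbours Dsg1 and Dsg4, desmogleins of the upper layers of stratified epithelia and of hair, had differences near 0 that did not pass, at values below the median of every array. Without a detection call, it is not known whether either was above background. Dsg1 had log2 expression of 5.52, 5.35 and 5.44 in the basal and 5.54, 5.52 and 5.57 in the non-basal fraction, a difference of -0.10 with a 95% confidence interval of -0.27 to 0.07 (limma adjusted p = 0.372). Dsg4 had the same value of 5.60 on 5 arrays and 5.74 on basal replicate 2 (limma adjusted p = 0.682). Dsc1 is not analysed here. The promoters of the 4 cadherin genes that were called are shown because these neighbours differed unequally between the fractions. Each window holds 250 bases before and 50 after the start site (RefSeq, GRCr8), written 5′ to 3′ along the gene. Capitals mark GGGCGG, the box bound by SP and KLF factors, and CACCTG, the E-box bound by SNAI and ZEB repressors, on either strand.
Dsg3, chr18:12074071-12074370, plus strand: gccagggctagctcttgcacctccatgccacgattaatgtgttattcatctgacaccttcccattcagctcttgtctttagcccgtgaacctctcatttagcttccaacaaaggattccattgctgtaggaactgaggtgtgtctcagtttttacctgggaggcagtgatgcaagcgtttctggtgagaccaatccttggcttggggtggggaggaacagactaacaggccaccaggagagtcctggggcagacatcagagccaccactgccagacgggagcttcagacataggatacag
Dsg2, chr18:12121037-12121336, plus strand: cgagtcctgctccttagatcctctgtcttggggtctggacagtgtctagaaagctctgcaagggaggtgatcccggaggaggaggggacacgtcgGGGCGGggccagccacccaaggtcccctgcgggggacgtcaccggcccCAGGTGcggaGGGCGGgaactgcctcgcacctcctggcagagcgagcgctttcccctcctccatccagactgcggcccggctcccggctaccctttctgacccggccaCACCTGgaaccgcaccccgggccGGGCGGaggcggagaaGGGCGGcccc
Dsc3, chr18:11688822-11689121, minus strand: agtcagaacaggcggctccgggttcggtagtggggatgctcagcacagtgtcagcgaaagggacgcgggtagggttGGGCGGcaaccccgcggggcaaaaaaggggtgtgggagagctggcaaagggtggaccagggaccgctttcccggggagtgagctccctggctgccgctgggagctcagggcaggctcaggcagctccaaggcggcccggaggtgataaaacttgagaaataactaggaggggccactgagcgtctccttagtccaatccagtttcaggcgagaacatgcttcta
Dsc2, chr18:11757417-11757716, minus strand: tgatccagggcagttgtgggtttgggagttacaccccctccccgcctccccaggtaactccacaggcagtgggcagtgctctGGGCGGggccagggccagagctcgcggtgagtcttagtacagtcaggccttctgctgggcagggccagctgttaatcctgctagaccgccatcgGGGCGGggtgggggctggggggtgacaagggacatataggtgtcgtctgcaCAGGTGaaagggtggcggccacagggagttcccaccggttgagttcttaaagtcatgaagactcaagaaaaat
The window of Dsg3 held neither motif and was 52% G and C. The window of Dsg2 held 4 copies of GGGCGG and 2 of CACCTG and was 70.3% G and C. Those of Dsc3 and Dsc2 were 61.7% and 60.7% G and C and held 1 and 2 copies of GGGCGG, and that of Dsc2 also held 1 CACCTG. The median over all 33469 rat promoters of this length was 51.7%.

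The plakophilins are armadillo proteins of the desmosomal plaque, which bind desmoplakin and gather the cadherins. Pkp1, the plakophilin of stratified epithelia, had log2 expression of 10.18, 10.35 and 10.06 on the basal arrays and 6.90, 7.70 and 7.42 on the non-basal arrays. The gap between the fractions was far wider than the spread within either. The difference was 2.85 ± 0.209 (SE), or 7.23-fold (limma adjusted p = 0.00206), and 99.9% of all genes had a lower signed difference. Pkp3, found in the desmosomes of most epithelia, had values of 9.43, 9.56 and 9.33 in the basal fraction and 7.84, 7.87 and 7.77 in the non-basal fraction. It had the smallest SE of the 9 members, and the difference was 1.61 ± 0.0791 (SE; limma adjusted p = 0.00111).

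Pkp2, the plakophilin of simple epithelia and of heart muscle, had log2 expression of 9.57, 9.52 and 9.57 in the basal fraction and 9.82, 9.01 and 9.22 in the non-basal fraction. Non-basal replicate 1 was above all basal arrays and the other non-basal arrays were below them, so the groups overlapped. The difference of 0.20 ± 0.207 (SE) had a 95% confidence interval of -0.30 to 0.71 (limma adjusted p = 0.551). Without non-basal replicate 1 the difference was 0.44 (limma adjusted p = 0.0311). The promoter window of Pkp1 is shown because this gene had the largest difference, with capitals as above.
Pkp1, chr13:49909113-49909412, minus strand: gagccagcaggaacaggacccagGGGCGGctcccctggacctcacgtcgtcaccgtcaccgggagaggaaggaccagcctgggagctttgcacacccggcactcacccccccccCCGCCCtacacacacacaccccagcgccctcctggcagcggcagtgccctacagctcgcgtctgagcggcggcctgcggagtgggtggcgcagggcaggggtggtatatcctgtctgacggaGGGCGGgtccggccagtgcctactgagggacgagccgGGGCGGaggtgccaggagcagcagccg
This window was 71.3% G and C and held 4 copies of GGGCGG and no CACCTG.

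Jup encodes plakoglobin, the armadillo protein that joins the cadherin tails to desmoplakin and that also takes part in adherens junctions. Its log2 expression was 11.97, 12.09 and 11.47 on the basal arrays and 10.47, 10.40 and 10.36 on the non-basal arrays. The non-basal values were tightly grouped and lay below all basal values, of which replicate 3 was the lowest. The difference was 1.43 ± 0.165 (SE; limma adjusted p = 0.00453). Perp encodes a small membrane protein of the PMP22 family that desmosomes need in stratified epithelia, and is a known target of p53 and p63. It had values of 12.40, 12.35 and 12.05 in the basal fraction and 11.24, 10.74 and 10.74 in the non-basal fraction, without overlap. The difference was 1.36 ± 0.171 (SE; limma adjusted p = 0.00558).

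Across the 8 members with a promoter entry, Dsp included and Pkp2 and Pkp3 not, 7 windows held GGGCGG and 5 held CACCTG, while 33.1% and 18.8% of all rat promoters of this length did. The letters AACCNGTT, the site of grainyhead-like factors, and TATAAA were in 0 of the 8 windows and in 2.1% and 14.2% of all. A loose pattern of p53 family sites was in all 8 and in 67.5% of all promoters. The windows of Jup, Dsp and Perp were 69%, 75% and 71.3% G and C, against the median of 51.7%. The shares over all promoters were not matched for base content, so these matches describe the windows only.

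The members did not differ equally, and the plot of differences orders them by size. Within families, the question was whether the paralogue known from stratified epithelia differed more than the one also used in simple epithelia. For each array the log2 value of the second gene was taken from that of the first and centred on the mean of the 6 arrays, so that only the shift between fractions can be read. For Dsg3 minus Dsg2 the centred values were 0.93, 0.07 and 0.41 in the basal fraction and -0.88, -0.30 and -0.23 in the non-basal fraction, a shift of 0.94. For Pkp1 minus Pkp2 they were 1.30, 1.51 and 1.17 in the basal fraction and -2.24, -0.62 and -1.12 in the non-basal fraction, a shift of 2.65. The desmocollins went the other way: Dsc3 minus Dsc2 was -0.42, -0.41 and -0.35 in the basal fraction and -0.11, 0.65 and 0.64 in the non-basal fraction, a shift of -0.79. The non-basal values of Dsc3 lay near the array medians, those of Dsg3 (6.10, 6.13 and 6.32) lay below them, and there is no detection call. Whether a floor of the signal narrowed the difference of either gene was not tested. The fractions did not overlap in any of the 3 pairs, but how often other pairs of genes separate was not counted. Among single genes, 17.6% had all basal values above all non-basal values. The exact permutation test gave p = 0.1 for each (two-sided, adjusted p = 0.1 over the 3 pairs), the smallest p that 3 arrays against 3 allow, so no pair could pass the threshold of 0.05.

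**Figure D2:**
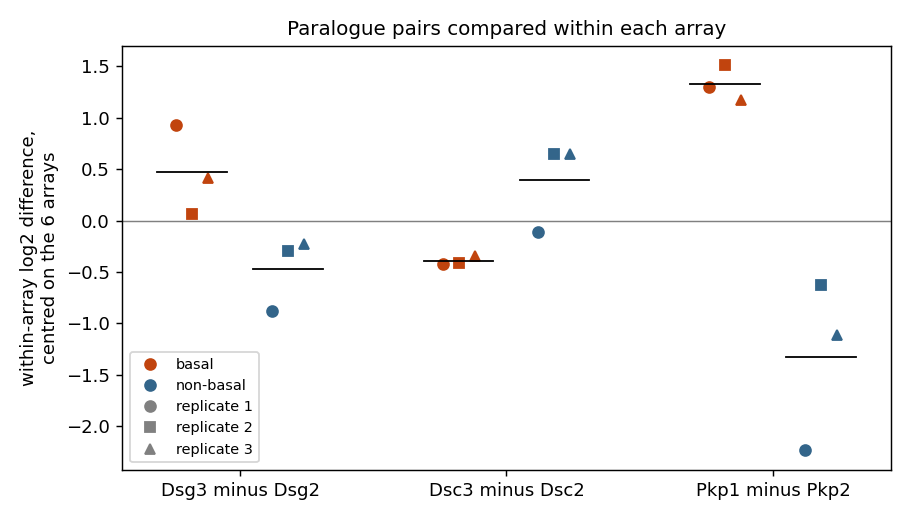
Within-array log2 difference between paralogues (vertical axis, centred on the mean of the 6 arrays) for 3 pairs of desmosome genes. Points are arrays and black lines are means of the 3 arrays of a fraction. Basal arrays lie above non-basal arrays for Dsg3 minus Dsg2 and Pkp1 minus Pkp2, by 0.94 and 2.65, and below them for Dsc3 minus Dsc2.

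Of the arrays that stood apart, basal replicate 3 had a mean deviation of the desmosome genes of 0.56, against 0.84 and 0.78. Non-basal replicate 1, at -0.67 against -0.78 and -0.74, was close to the others of its fraction. Basal replicate 3 had the lowest value of its fraction for 7 of the 9 members, all but Dsg3 and Pkp2. Non-basal replicate 1 was the highest of its fraction for Dsg2, Dsc2, Pkp2, Jup and Perp but the lowest for Dsg3, Dsc3 and Pkp1. On the same array the mean deviation of the 11 markers of all epithelium was 0.06, against -0.50 and -0.42 on the other non-basal arrays, and that of the basal markers was the lowest of all 6 arrays. With both of these arrays left out, 8 of the 9 members were again higher, beside 13.8% of all genes.

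Markers of all epithelium were examined beside the desmosome genes, as the plot of marker lists shows. By limma 7.71% of all genes were higher in the basal fraction and 7.14% were lower. Of the 11 markers 4 were higher in the basal fraction, 0 were lower and 7 did not pass. Those called included Epcam, an epithelial adhesion protein gene, at 1.27 ± 0.155 (SE; limma adjusted p = 0.00521) and Cdh1, which encodes E-cadherin, at 0.89 ± 0.117 (SE). The desmosome genes had a median log2 difference of 1.43, against 0.51 for these markers. Set against the mean of these 11 markers on each array, a scale chosen after the data were seen, 7 members were higher in the basal fraction, where 2.01% of all genes were. On that scale Pkp1 differed by 2.28, Dsg3 by 1.54 and Dsg2 by 0.60, while Dsc3 differed by 0.21 (limma adjusted p = 0.416) and Pkp2 by -0.37 (limma adjusted p = 0.115). All 3 basal values of Pkp2 then lay below all 3 non-basal values. However, this scale moved the median of all genes to -0.57, below the difference of Pkp2. On it 11442 of the 18166 genes were called lower. How far the share of epithelial or of basal cells in a fraction contributed to each difference was not tested.

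**Figure D3:**
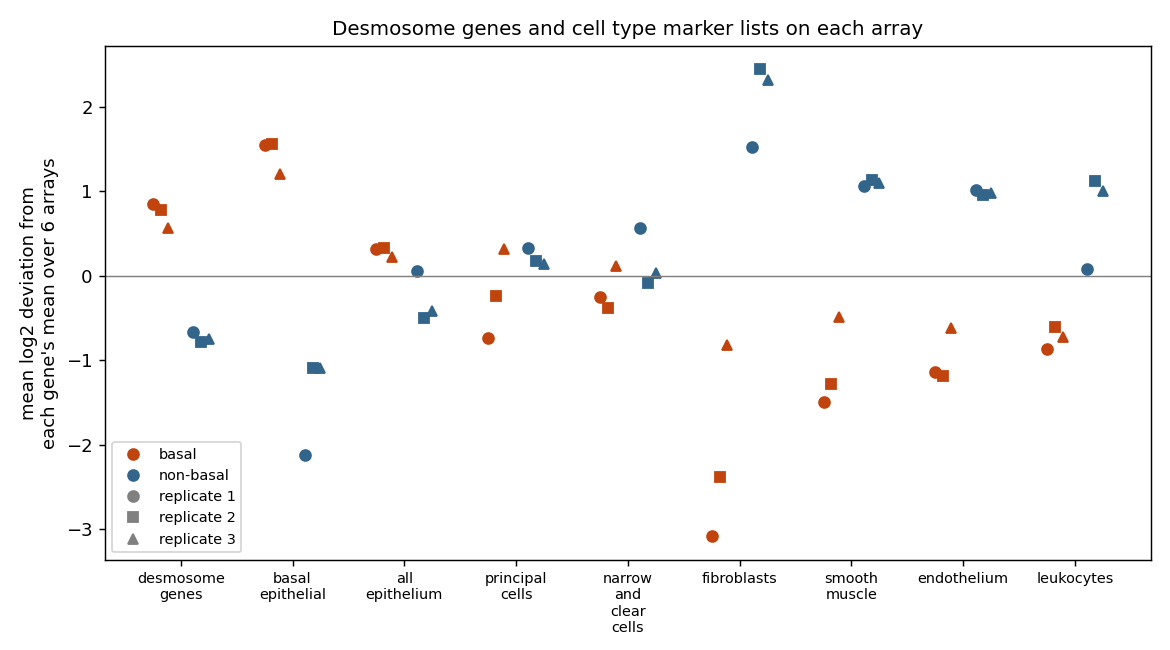
Mean log2 deviation from each gene's own mean over the 6 arrays (vertical axis) for the 9 measured desmosome genes and for 8 marker lists, on the 3 basal and 3 non-basal arrays. The desmosome genes lie at 0.56 to 0.84 on basal arrays and at -0.78 to -0.67 on non-basal arrays, and the fibroblast, smooth muscle and endothelial markers run the opposite way.

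Of 32 further genes that belong to desmosomes, are close relatives of the members or act on them, 25 were measured. Among these 12 were higher, 3 were lower and 10 did not pass by limma, with a median log2 difference of 0.24, beside the 7.71% and 7.14% of all genes that were higher and lower. In the plakin family, whose proteins tie junctions to the cytoskeleton, the periplakin gene Ppl was higher by 1.11 ± 0.126 (SE) and the plectin gene Plec by 1.00 ± 0.176 (SE), and the envoplakin gene Evpl had a difference of -0.19 (limma adjusted p = 0.213). Dropping single arrays ended the call of Plec in 4 of 6 fits, with an adjusted p of up to 0.075. Among armadillo relatives Ctnnd2, the delta catenin best known from neurons, was higher by 2.44 ± 0.16 (SE) and Ctnnd1, the p120 catenin gene, by 0.83 ± 0.0819 (SE), whereas Ctnnb1, which encodes beta catenin, had 0.18 (adjusted p = 0.128). The keratin-associated gene Fam83h was higher by 2.04 ± 0.202 (SE), and the periplakin-binding gene Kazn had -0.45 (adjusted p = 0.0818). Relative to the epithelial markers 8 of the 25 genes were higher and 11 were lower. Of all genes, 2.01% were higher on that scale and 11442 of 18166 were lower. The calls of Ctnnd1 (0.25, limma adjusted p = 0.288) and Plec (0.42, limma adjusted p = 0.104) ended there.

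The PMP22 family, to which Perp belongs, was split. Emp2 was higher by 1.40 ± 0.213 (SE), like Perp, while Emp3 was lower at -2.45 ± 0.225 (SE) and Pmp22, the peripheral myelin protein gene, was 1.99-fold lower (limma adjusted p = 0.00445). Tmem47 had a difference of -0.37 (limma adjusted p = 0.093). The Emp2 call was lost without basal replicate 2 or non-basal replicate 3, with an adjusted p of up to 0.0597.

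Of 5 transcription factor genes known to act on desmosomal genes, 4 were higher, beside 7.71% of all genes. The count includes Tp63, which is also among the basal epithelial markers. Tp63, the basal cell factor, differed by 3.10 ± 0.266 (SE; limma adjusted p = 0.00247), Grhl3, a grainyhead-like factor of the epidermis, by 1.82 ± 0.193 (SE), Klf5 by 1.72 ± 0.179 (SE) and Grhl2 by 0.62 ± 0.127 (SE). Dropping single arrays ended the call of Grhl2 in 4 of 6 fits, with an adjusted p of up to 0.103. Among enzymes that act on desmosomal cadherins, the receptor kinase gene Egfr was higher by 2.49 ± 0.324 (SE) and the shedding protease gene Adam17 by 0.54 ± 0.0741 (SE). Relative to the epithelial markers the calls of Grhl2 (0.04, limma adjusted p = 0.864) and Adam17 (-0.04, adjusted p = 0.865) ended, and the sign turned for Adam17. Prkca, the kinase C gene whose product is known to make desmosomes calcium dependent, was lower at -0.64 ± 0.0996 (SE; limma adjusted p = 0.011), a call lost without basal replicate 1 or non-basal replicate 3.

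**Figure D4:**
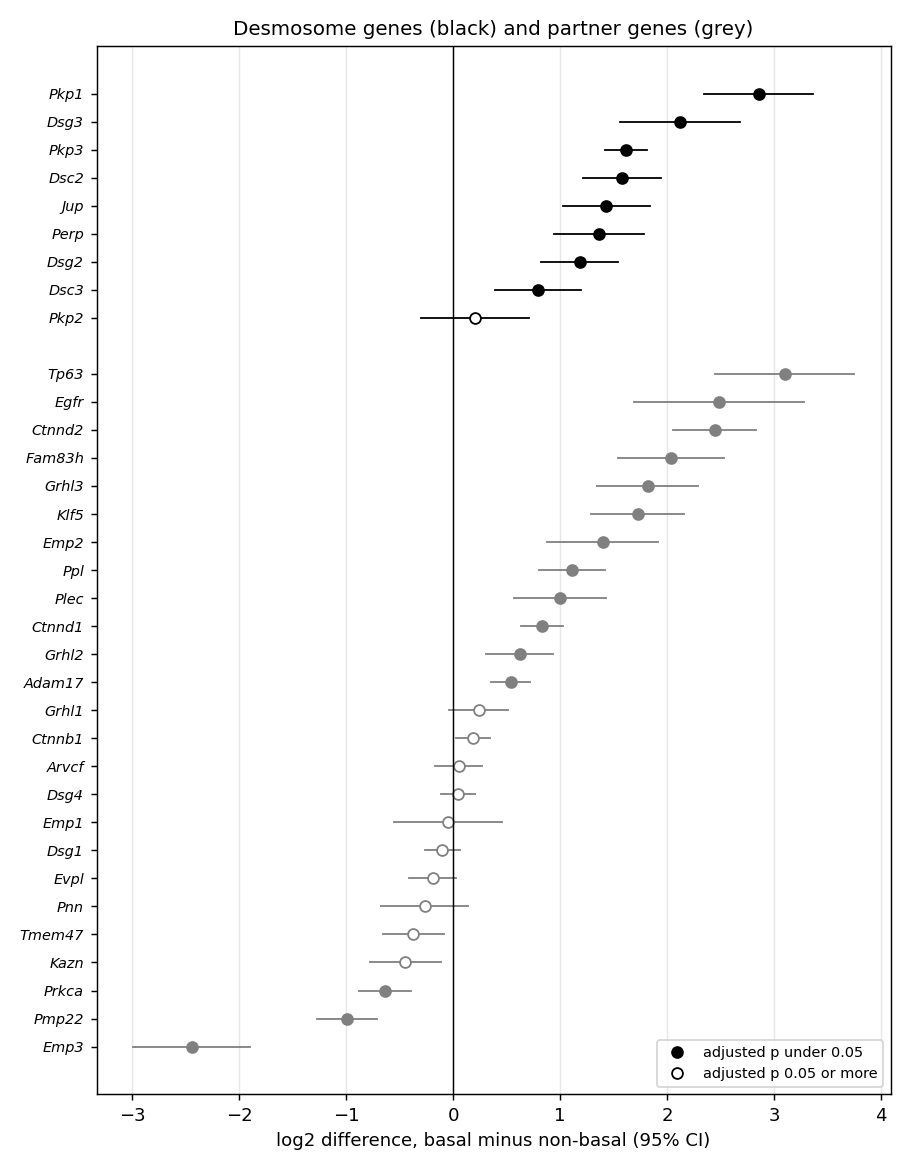
Log2 difference, basal minus non-basal (horizontal axis), with its 95% confidence interval, for the 9 measured desmosome genes (black) and 25 measured partner genes (grey), each set in order of size. Filled points passed at a limma adjusted p under 0.05 and open points did not. The desmosome genes run from 0.20 for Pkp2 to 2.85 for Pkp1, while the partner genes run from -2.45 for Emp3 to 3.10 for Tp63.

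The genes whose values over the 6 arrays followed the mean profile of the desmosome genes most closely were Krt80, Ctnnal1, Card10, Efnb2 and Fermt1, with Pearson's r of 0.999 each. They were taken from the 1122 other genes with an absolute log2 difference of at least 1. Krt80 encodes a keratin filament protein, Ctnnal1 a relative of alpha catenin, Card10 a signalling scaffold, Efnb2 the membrane ligand ephrin B2 and Fermt1 the integrin-binding kindlin of epithelia. Krt80 had log2 expression of 11.21, 11.19 and 10.67 in the basal fraction and 8.73, 8.58 and 8.60 in the non-basal fraction, with basal replicate 3 again the lowest basal array. Since the profile is mostly the gap between the fractions, high r was not particular to these 5 genes. Of the 1122 genes, which include genes lower in the basal fraction, 79 had r of at least 0.99. Each member's own r with the mean of the other members was 0.90 to 0.99, except 0.39 for Pkp2.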

How the data were processed

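Total RNA of basal and non-basal cells was measured on Affymetrix RaGene 2.0 ST arrays, 3 for each fraction, with no array tied to an animal. The deposited values are log2 expression that, per the submitters' processing notes, the authors made by RMA with Affymetrix Expression Console. The versions, probe set library and genome build are not given in the sources used here. RMA makes the arrays' distributions match, so a shift common to most genes would be removed.

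Of 36685 probe sets, 18511 carried 1 gene symbol in the platform annotation, 575 several and 17599 none. Each gene was read from its probe set with the highest mean over the 6 arrays, giving 18166 genes. Each measured member had 1 probe set. The basal minus non-basal difference of each gene was estimated in limma 3.58.1 (lmFit, eBayes; R 4.3.3), with neither a block for replicate number nor a filter on dim probe sets. P-values are two-sided and Benjamini-Hochberg adjusted over all genes, with a threshold of 0.05. SEs are limma's moderated ones, and SDs are over 3 arrays. Promoter sequences and gene order came from RefSeq tables of GRCr8, used for no coordinate of a probe set.

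Members, gene lists and tests were chosen with earlier results of these data known. Partner genes are named where called, with up to 4 others of the smallest p. Dsg1 and Dsg4 were singled out after their values were seen.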

Additional observations from a re-analysis of the deposited data

How the results depend on the processing

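The count of desmosome genes that were higher in the basal fraction was 7 to 9 under every alternative run, and 0 were lower. It was 8 with another quantile normalization, centring on array medians, a filter at a group mean of 5, array weights, a robust intensity trend, averaged probe sets, and basal replicate 3 with non-basal replicate 1 left out. With 1 array left out it was 7 to 9, and relative to the epithelial markers 7. Over the alternative runs the share of all genes that were higher ran from 2.01% to 15.8%. Deviations of same-numbered arrays from their fraction means had r of 0.0278 to 0.0383 over all genes. Other pairings were not compared, so whether the numbers pair arrays from a shared source was not tested. With the replicate number as a block 7 members, 982 of all genes and 11 partner genes were higher, and the adjusted p was 0.0705 for Dsc3 and 0.0689 for Grhl2. Blocked sign-flip tests of the paralogue pairs gave p = 0.25, the smallest possible, by an exact permutation. With 1 array left out, the shifts of the pairs were 0.71 to 1.14 for Dsg3 minus Dsg2, -1.04 to -0.66 for Dsc3 minus Dsc2 and 2.20 to 3.00 for Pkp1 minus Pkp2.

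Counts over all genes moved more. They were 2868 higher and 2323 lower with array weights, 2499 and 2124 with both outlying arrays left out, 509 to 2068 and 542 to 1607 with 1 array left out, and 366 and 11442 relative to the epithelial markers, a scale that moves the median of all genes to -0.57. The number of partner genes that were lower was 6 with array weights, 5 without both outlying arrays, 11 relative to the epithelial markers and 2 to 5 with 1 array left out. Relative to the epithelial markers 8 partner genes were higher, and the sign turned for Adam17 (-0.042), which is called as deposited, and for Pkp2 (-0.37), Dsg4 (-0.53), Ctnnb1 (-0.40), Arvcf (-0.53) and Grhl1 (-0.34), which are not. Dsg4 was at -0.00997 after another quantile normalization. With 1 array left out, Arvcf lay between -0.015 and 0.10 and Emp1 between -0.23 and 0.11. The causes were not tested beyond the construction of each scale.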
